A study of Homo sapiens with 6 samples.

Results

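The 9 genes described here encode the class I phosphoinositide 3-kinases (PI3K) and 2 lipid phosphatases that act against them. They were chosen by symbol: Pik3ca, Pik3cb, Pik3cd and Pik3cg (catalytic subunits), Pik3r1, Pik3r2 and Pik3r3 (regulatory subunits), and Inpp4b and Inpp5d (phosphatases). All 9 are among the 22989 genes of the count table, and 8 of them passed the filter on low counts that left 13497 genes for testing. RNA was sequenced in 6 libraries labelled as MDA-MB-231 breast cancer stem-like cells (BCSC), 3 of them LINC00115 KD and 3 WT. MDA-MB-231 is an established human triple-negative breast cancer line. Both groups are resistant to paclitaxel (PTX). In the study, BCSC are the cells that flow sorting found positive for aldehyde dehydrogenase activity. In the KD group the long noncoding RNA LINC00115 is targeted by short hairpin RNA, introduced with virus under puromycin selection. The study's figure legend names a single hairpin for this comparison, so its effects on other targets cannot be told apart from loss of LINC00115. The labels name the other group WT, whereas the study describes a control hairpin, so whether the WT libraries carry a vector is not clear. Nothing in the labels says that the replicates of a group came from separate cultures, and the p-values measure the spread between these libraries only. The question of the comparison was which genes depend on LINC00115 in PTX-resistant BCSC.

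Class I PI3K is a heterodimer. A p110 catalytic subunit phosphorylates a phosphoinositide lipid of the plasma membrane, and a p85-type regulatory subunit holds it inactive until receptors or adaptors recruit the pair. The lipid product draws the kinase AKT to the membrane and so promotes growth, survival and glucose use. Inpp5d (SHIP1) and Inpp4b remove phosphates from that product and from its first breakdown product. PI3K signalling is frequently activated in breast cancer, and loss of INPP4B is known from triple-negative tumours.

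The libraries held between 36979221 and 38799331 counts. The symbols are written in mouse style, and 4648 of them have the form Gm with a number and 1129 end in Rik, as mouse genes without a functional name do. Scgb1a1 and Sftpc, genes of lung epithelium, and Kap, a kidney gene, had 0 counts in every WT library and 43.6 ± 4.68, 14.7 ± 1.13 and 10.4 ± 1.82 normalized CPM in KD (SD, n = 3). As these genes were counted in KD only, a difference in library content cannot be told apart from the knockdown in any comparison below. The symbols themselves are those of a mouse annotation, although the labels give human cells. From which organism the reads came is therefore in doubt, and this touches every value below. Symbols are printed as in the table, and human positions, lengths and promoters were assigned by matching symbols without regard to case. They describe the human genes of the same names and need not describe the gene models that were counted. The table has no gene under the name LINC00115, so the knockdown was not checked here and each direction rests on the labels. Vim, a mesenchymal marker that MDA-MB-231 expresses, had 3418 ± 49.8 normalized CPM in the WT libraries and 3736 ± 79.7 in the KD libraries (SD, n = 3 each). Of the 7 mesenchymal markers, S100a4 was called lower (784.8 ± 34.1 and 340.6 ± 14.0) and Zeb1 was at only 0.751 and 1.32, whereas Fn1 (2648 and 1945), Msn (966.7 and 989.9), Cd44 (910.8 and 879.4) and Axl (731.2 and 895.7) were abundant in both groups. The list summed to between 9360 and 9560 in WT and between 8700 and 8890 in KD. The epithelial markers Epcam (0.0177 and 0.0797) and Cdh1 (0.0530 and 0.734) were low, but Krt8 (472.4 and 752.5), Krt18 (129.2 and 235.9) and Gata3 (95.8 and 53.2) were abundant. The 8 luminal and epithelial markers summed to between 693 and 711 in WT and between 1020 and 1060 in KD, and Cdh1 and Esr1 (0.698 and 2.56) were called higher. The markers thus give no uniform check of the labelled line. Normalized CPM are counts divided by the library total after TMM scaling, on the usual CPM scale.

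Among the catalytic subunits, the KD libraries held more Pik3cb and less Pik3cd, while Pik3ca, the most counted of them, moved little. Pik3cb rose 2.04-fold and Pik3cd fell 2.00-fold. Both passed the thresholds of the study's methods, which are 0.05 for the adjusted p and 2 for the fold, but both lie close to the fold threshold. Of all genes tested, 9.98% were called lower and 10.2% higher at these thresholds, 20.2% in all, so 1 lower and 1 higher gene among 8 is near the background share.

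Pik3cb encodes p110β, a widely expressed isoform that also responds to G protein-coupled receptors. The human gene lies on the minus strand of chromosome 3 from 138371540 to 138553770 (GRCh37). It had 422, 371 and 405 counts in WT replicates 1 to 3 and 831, 743 and 877 counts in KD replicates 1 to 3. The lowest KD library thus had more counts than the highest WT library. In normalized CPM the level was 10.6 ± 0.697 in WT and 21.6 ± 1.43 in KD (SD, n = 3 each). The log2 fold change was 1.03 (SE 0.0933, 95% interval 0.84 to 1.22, adjusted p = 5.88e-12, quasi-likelihood test of edgeR). It fell under a fold of 2 with upper quartile scaling (0.99), without WT replicate 2 (0.98) and without KD replicate 3 (0.99), with adjusted p-values of at most 2.58e-09 over all alternatives.

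Pik3cd encodes p110δ, the isoform best known from leukocytes. The human gene lies on the plus strand of chromosome 1 from 9689947 to 9789172 (GRCh37). Its counts were 534, 555 and 613 in the WT libraries and 298, 270 and 283 in the KD libraries. Again the groups did not overlap, and the KD libraries lay close together. The mean level was 15.03 ± 1.06 normalized CPM in WT and 7.50 ± 0.181 in KD (SD, n = 3 each). The log2 fold change was −1.002 (SE 0.108, 95% interval −1.22 to −0.78, adjusted p = 3.92e-10, quasi-likelihood test of edgeR). Its size was under a fold of 2 with DESeq2's size factors (−0.9952), with DESeq2's Wald test (−0.9943) and without WT replicate 3 (−0.94), KD replicate 2 (−0.98) or KD replicate 3 (−0.99). In every alternative its adjusted p-value was at most 9.16e-08, so the decrease held and only the fold threshold did not.

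Pik3ca encodes p110α, the isoform most often mutated in breast cancer. The human gene lies on the plus strand of chromosome 3 from 178865902 to 178957881 (GRCh37). Its counts were 3591, 3974 and 3747 in WT and 3317, 3677 and 3458 in KD. The groups overlapped, since KD replicate 2 lay above WT replicate 1 after scaling (100.2 and 95.3 normalized CPM). The log2 fold change was −0.11 (95% interval −0.22 to −0.012, adjusted p = 0.0409, quasi-likelihood test of edgeR). This call was lost in 6 of 13 alternatives, with an adjusted p of 0.0535 with DESeq2's size factors, 0.115 with DESeq2's Wald test, 0.227, 0.0584, 0.366 and 0.148 without WT replicate 2, WT replicate 3, KD replicate 1 and KD replicate 3.

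Pik3cg encodes p110γ, an isoform of blood cells that pairs with Pik3r5 or Pik3r6 instead of a p85-type subunit. It had 1, 4 and 1 counts in WT and 2, 4 and 2 in KD, at most 1 count above the floor of 3 counts, and was not tested. A difference in Pik3cg was not detectable at this depth. Its partner Pik3r5 had 53, 58 and 47 counts in WT and 122, 99 and 88 in KD, a log2 change of 0.96 (adjusted p = 0.00236, quasi-likelihood test of edgeR) that did not pass the fold threshold. Pik3r6 had 0 counts in each WT library and 0, 1 and 6 in KD. Both partners are named here after their values were seen.

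**Figure D1:**
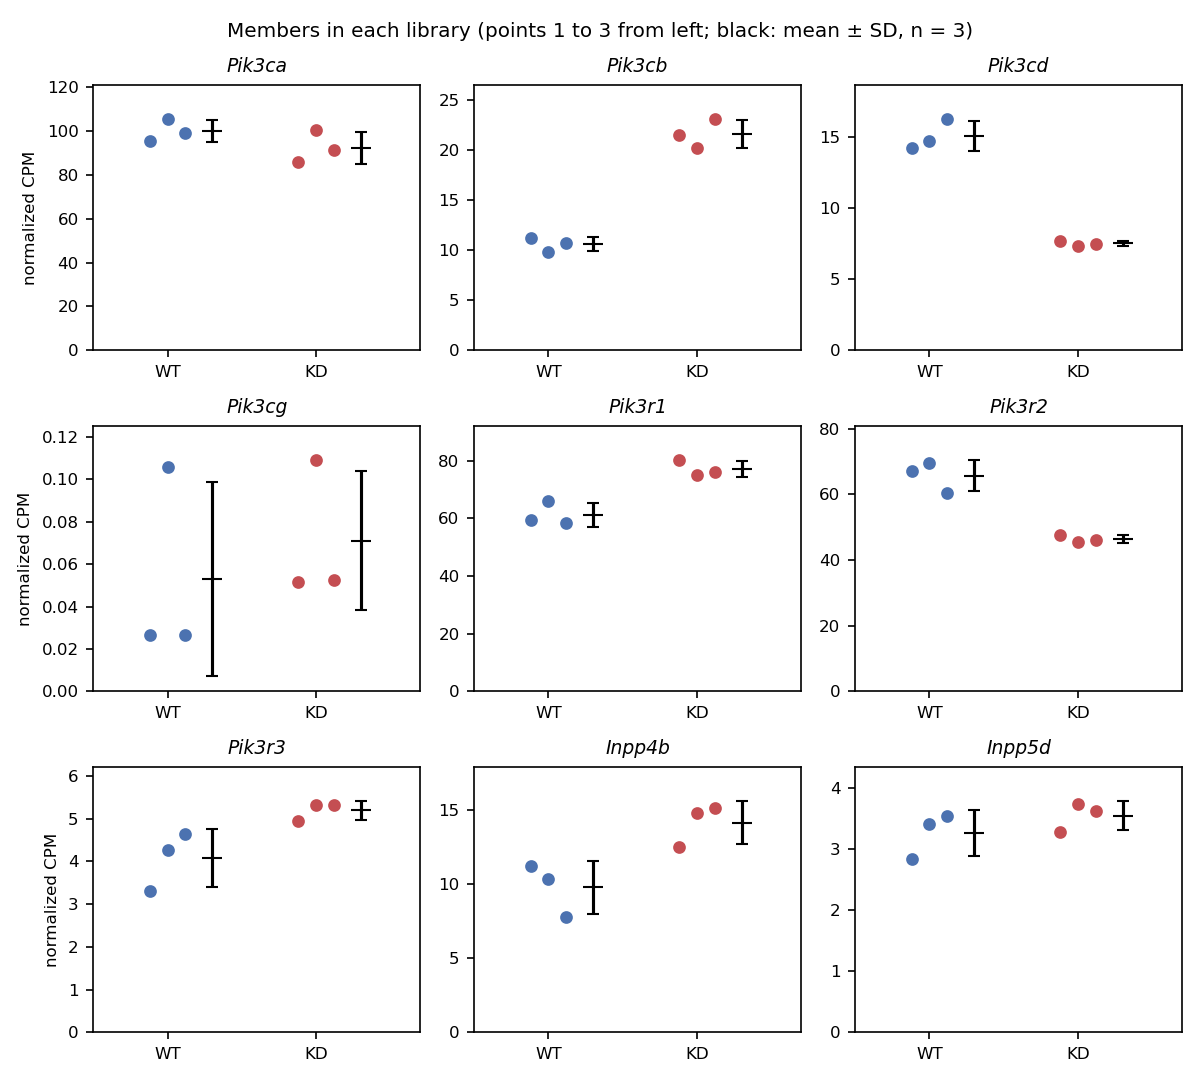
Normalized CPM (vertical axes, from 0) of the 9 genes in each WT (blue) and KD (red) library, with points for replicates 1 to 3 from left to right and the mean ± SD in black. Pik3cb is higher and Pik3cd and Pik3r2 are lower in all 3 KD libraries, while Pik3ca and Inpp5d overlap between the groups.

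Among the regulatory subunits, Pik3r1 rose and Pik3r2 fell, both by less than 2-fold, and Pik3r3 did not pass the test. Pik3r1 encodes p85α and, from shorter transcripts, p55α and p50α, which gene counts do not separate. Pik3r2 encodes p85β, and Pik3r3 encodes p55γ. The human genes lie on chromosome 5 from 67511568 to 67597649 (PIK3R1, plus strand), chromosome 19 from 18263973 to 18281342 (PIK3R2, plus strand) and chromosome 1 from 46505812 to 46598708 (PIK3R3, minus strand) in GRCh37. In that annotation PIK3R2, PIK3R3, PIK3CA and PIK3CD each overlap 1 other protein-coding gene model, in the case of PIK3CA and PIK3CD on the opposite strand. Whether strand was used and how shared reads were counted is not given in the sources used here, so reads of such pairs may not be told apart.

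Pik3r1 had 2238, 2489 and 2206 counts in WT and 3102, 2750 and 2886 in KD, without overlap between the groups. Mean levels were 61.2 ± 4.10 and 77.0 ± 2.80 normalized CPM (SD, n = 3 each), for a log2 change of 0.33 (SE 0.0523, adjusted p = 8.93e-07, quasi-likelihood test of edgeR). Pik3r2 had 2526, 2629 and 2286 counts in WT and 1841, 1666 and 1757 in KD. Here all KD libraries were below all WT libraries. The level fell from 65.7 ± 4.71 to 46.4 ± 1.12 normalized CPM, a log2 change of −0.50 (SE 0.0561, adjusted p = 8.58e-10, quasi-likelihood test of edgeR). Pik3r3 was counted far less, with 125, 161 and 175 counts in WT and 191, 195 and 202 in KD. Its KD libraries were all above its WT libraries, yet the WT libraries spread widely (coefficient of variation 16.6%, against 4.20% in KD). The log2 fold change of 0.35 had a 95% interval of −0.011 to 0.71 and an adjusted p of 0.0754 in the quasi-likelihood test of edgeR. Without WT replicate 3 this p was 0.0402, and in the other 12 alternatives it was between 0.0701 and 0.286. The log2 fold change of Pik3r3 ranged from 0.22 to 0.45 with 1 library left out.

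Of the phosphatases, Inpp4b rose 1.45-fold, and Inpp5d did not pass the test. Whether the changes of these genes differ was not tested. Human INPP4B lies on the minus strand of chromosome 4 from 142944313 to 143768585 and INPP5D on the plus strand of chromosome 2 from 233924677 to 234116549 (GRCh37). Inpp4b had 424, 390 and 294 counts in WT and 483, 543 and 576 in KD. All KD libraries were above all WT libraries. The level was 9.79 ± 1.80 and 14.2 ± 1.45 normalized CPM (SD over 3 libraries), or a log2 change of 0.53 (SE 0.119, 95% interval 0.29 to 0.77, adjusted p = 0.000166, quasi-likelihood test of edgeR). With 1 library left out, this value ranged from 0.39 to 0.64. Inpp5d had 107, 129 and 134 counts in WT and 127, 137 and 138 in KD. Its groups overlapped, and the log2 fold change of 0.12 had a 95% interval of −0.30 to 0.54 (adjusted p = 0.611, quasi-likelihood test of edgeR). At this depth a change of up to 0.54 on the log2 scale is within the interval. With 1 library left out, the log2 fold change of Inpp5d ranged from 0.027 to 0.18.

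Taking the fold threshold away, 3 of the 8 genes tested were lower (Pik3ca, Pik3cd, Pik3r2) and 3 higher (Pik3cb, Pik3r1, Inpp4b) with adjusted p below 0.05 (quasi-likelihood test of edgeR). The background is high, since 73.4% of all genes tested passed that threshold, 36.7% in each direction. Of the 8 genes, 2 were lower and 4 higher without overlap between the groups, against 37.8% of all genes in each direction and 75.6% in either. The median log2 fold change of the 8 genes was 0.225, against −0.0061 over all genes tested, and their median absolute change was 0.426 against 0.453.

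**Figure D2:**
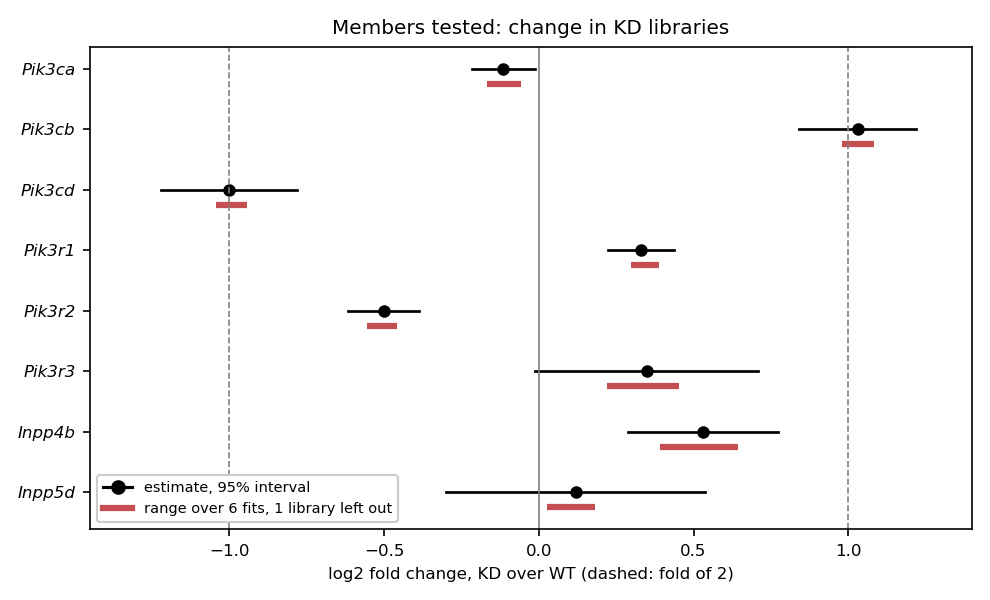
Log2 fold change of the KD over the WT libraries (horizontal axis) for the 8 genes tested, with the 95% interval in black and, in red, the range over the 6 fits that each left out 1 library. Pik3cb and Pik3cd lie on the dashed lines of a fold of 2, and only the intervals of Pik3r3 and Inpp5d include 0.

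Ratios inside a library need no scaling between libraries. The counts of Pik3cb were 0.790, 0.668 and 0.661 times those of Pik3cd in WT replicates 1 to 3, and 2.79, 2.75 and 3.10 times in KD replicates 1 to 3. Pik3cd thus had more counts than Pik3cb in every WT library and fewer in every KD library. The log2 ratio was −0.506 ± 0.145 in WT and 1.52 ± 0.0939 in KD (SD, n = 3 each), a 4.08-fold change of the ratio. The exact permutation test, two-sided, gave p = 0.1, the smallest value that 3 libraries against 3 allow. The pair was chosen with the direction of both genes known, so the ratio is a description. Counts of 2 genes also depend on their lengths, which affects each ratio but not its change between the groups.

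Summed over the 4 catalytic genes, the libraries held 4548, 4904 and 4766 counts in WT and 4448, 4694 and 4620 in KD. The 3 regulatory genes summed to 4889, 5279 and 4667 counts in WT and 5134, 4611 and 4845 in KD. Neither sum separated the groups. The catalytic to regulatory ratio lay between 0.929 and 1.02 in WT and between 0.866 and 1.02 in KD. Its log2 value differed by −0.0232 between the groups (exact permutation test, two-sided, p = 0.9), within the SD of 0.0783 in WT and 0.117 in KD.

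The makeup of both sums did differ. Pik3cb took 8.45% ± 0.858 of the catalytic counts in WT and 17.8% ± 1.74 in KD (SD, n = 3 each). The share of Pik3cd was between 11.3% and 12.9% in WT and between 5.75% and 6.70% in KD. Pik3ca kept the largest share, 79.5% ± 1.31 in WT and 75.9% ± 2.10 in KD. Among the regulatory counts, Pik3r1 went from 46.7% ± 0.829 to 59.9% ± 0.473 and Pik3r2 from 50.2% ± 1.38 to 36.1% ± 0.207. The ratio of Pik3r1 to Pik3r2 was 0.886, 0.947 and 0.965 in WT and 1.68, 1.65 and 1.64 in KD, so that Pik3r2 had more counts in each WT library and Pik3r1 in each KD library. This ratio changed 1.78-fold, which is a description, since the direction of both genes was known when they were paired. When Pik3ca and Pik3r1, the genes with the most counts of each sum over all 6 libraries together, were both left out, the log2 ratio of the remaining sums differed by 0.62. Leaving out either gene alone, or Pik3r2 instead, was not tried.

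**Figure D3:**
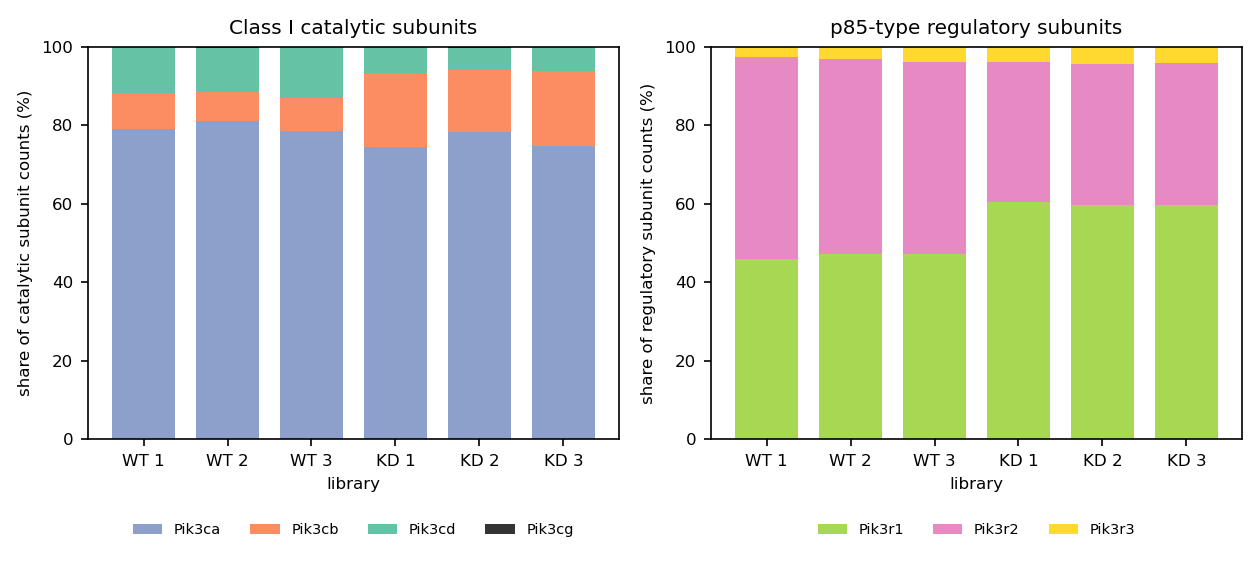
Share of the catalytic (left) and regulatory (right) subunit counts taken by each gene, in percent, in each of the 6 libraries. Pik3cb widens and Pik3cd narrows in the KD libraries, and Pik3r1 rises from between 45.8% and 47.3% to between 59.6% and 60.4%.

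Levels were compared between genes per kilobase of the human reference transcript (MANE Select, GENCODE v44 on GRCh37). This is an approximation, because the authors' gene models are not known and carry mouse-style names. On this scale of normalized CPM per kilobase, the WT order was Pik3r2 (16.5 ± 1.18), Pik3ca (10.8 ± 0.542), Pik3r1 (8.78 ± 0.587), Pik3cd (2.78 ± 0.197), Pik3cb (1.69 ± 0.111), Inpp4b (1.12 ± 0.206), Pik3r3 (0.727 ± 0.121), Inpp5d (0.679 ± 0.0781) and Pik3cg (0.00751 ± 0.0065). The neighbours Pik3r3 and Inpp5d lay within their summed SDs. In KD the first 3 were Pik3r2 (11.7 ± 0.28), Pik3r1 (11.04 ± 0.401) and Pik3ca (9.97 ± 0.787), each within the summed SDs of its neighbour. Below them Pik3cb (3.45 ± 0.228) and Inpp4b (1.62 ± 0.166) now stood above Pik3cd (1.39 ± 0.0334), followed by Pik3r3 (0.927 ± 0.0389), Inpp5d (0.737 ± 0.049) and Pik3cg (0.0101 ± 0.00464).

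As the study followed the HIF1 signalling pathway, the 250 bases before each RefSeq transcription start of the 9 human genes (25 windows, GRCh38.p14, all 9 symbols matched) were searched on both strands for ACGTG and GCGTG, the core letters of the hypoxia response element. Of these windows 10 (40.0%) held a match, against 43.2% of 35116 windows of all genes. By gene, 5 of 9 held a match in at least 1 window, against 47.4% of 27305 genes. Windows of a gene can overlap, as in PIK3R3, so that a match can be counted more than once. PIK3CB (2 windows), PIK3CD (3 windows) and PIK3R2 and INPP5D (1 window each) held none, PIK3R1 held matches in 2 of 4 windows, PIK3R3 in 4 of 6, INPP4B in 2 of 6 and PIK3CA and PIK3CG in their single windows. The sequences show the first listed window of the genes called higher and lower and a window with 2 matches, written from 5′ to 3′ on the gene's strand and with matches in capitals.
PIK3CB, chr3:138834929-138835178, minus strand: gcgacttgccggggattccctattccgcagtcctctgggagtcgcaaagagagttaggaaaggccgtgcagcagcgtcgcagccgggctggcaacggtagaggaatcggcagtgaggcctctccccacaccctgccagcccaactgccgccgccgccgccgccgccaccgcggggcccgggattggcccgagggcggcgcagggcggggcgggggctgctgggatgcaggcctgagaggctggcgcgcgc
PIK3CD, chr1:9651481-9651730, plus strand: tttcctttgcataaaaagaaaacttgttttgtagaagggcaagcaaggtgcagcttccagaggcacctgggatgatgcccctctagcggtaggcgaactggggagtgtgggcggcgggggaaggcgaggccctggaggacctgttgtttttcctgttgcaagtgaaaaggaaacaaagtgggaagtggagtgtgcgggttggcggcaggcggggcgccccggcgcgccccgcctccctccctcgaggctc
PIK3R1, chr5:68288269-68288518, plus strand: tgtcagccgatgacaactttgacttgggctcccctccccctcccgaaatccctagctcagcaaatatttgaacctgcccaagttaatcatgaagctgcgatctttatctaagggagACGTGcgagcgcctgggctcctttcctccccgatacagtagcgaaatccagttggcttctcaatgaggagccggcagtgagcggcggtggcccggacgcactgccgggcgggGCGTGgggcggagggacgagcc
The letters are a description of these windows and say nothing about the factor.

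The rest of the pathway was read from lists of 74 genes by role, of which 70 were tested. Of these, 3 were called lower and 6 higher, and 25 were lower and 31 higher with adjusted p below 0.05 (quasi-likelihood test of edgeR). Their median log2 fold change was 0.0479. The calls at both thresholds are a smaller share than the 9.98% and 10.2% of all genes. By adjusted p alone, against 36.7% of all genes in each direction, the lower genes are near that share and the higher genes above it.

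Upstream of PI3K, 3 of 17 receptors and adaptors were called higher and 1 lower, against 10.2% and 9.98% of all genes tested. By adjusted p below 0.05 alone (quasi-likelihood test of edgeR), 8 were higher and 5 lower, against 36.7% of all genes in each direction. Irs1, the adaptor that links insulin and IGF receptors to p85, rose from 13.6 ± 1.54 to 52.9 ± 2.50 normalized CPM (SD over 3 libraries), or a log2 change of 1.96 (SE 0.0754, adjusted p = 3.59e-22, quasi-likelihood test of edgeR). Its counts were 500, 576 and 462 in WT and 1954, 2037 and 1997 in KD, far apart. Gab2, another docking protein for p85, rose by 1.29, and Erbb3, a receptor with many p85 binding sites, by 2.60 on the log2 scale. Erbb3 had only 3, 6 and 5 counts in WT and 49, 22 and 16 in KD. Pdgfra, named after its values were seen, was the gene called lower, with a log2 change of −1.25 and levels of 177.5 ± 9.92 and 74.5 ± 1.39 normalized CPM. The insulin and IGF receptor genes Insr and Igf1r, named after their values were seen, were lower, though neither was called. Their log2 changes were −0.74 and −0.33 (adjusted p = 9.79e-16 and 9.21e-08, quasi-likelihood test of edgeR). The median of the 17 genes was 0.0432.

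Among the 5 class II and class III PI3K genes, Pik3c2b and Pik3c2g were called higher, against 10.2% of all genes tested. They rose by 1.45 and 2.72 on the log2 scale, both at low counts. Pik3c2b had 30, 21 and 14 counts in WT and 64, 77 and 37 in KD. Pik3c2g had 10, 6 and 0 counts in WT and 37, 29 and 42 in KD. Each separated the groups, but on few reads. Pik3r4, named after its values were seen, had 1809, 1740 and 1740 counts in WT and 1503, 1410 and 1328 in KD. It was lower without a call, with a log2 change of −0.32 (adjusted p = 1.61e-05, quasi-likelihood test of edgeR). Of 10 other phosphoinositide kinases tested, none was called, and 2 were lower and 6 higher with adjusted p below 0.05 (quasi-likelihood test of edgeR), with a median of 0.19, against 36.7% of all genes in each direction. None of the 4 remaining class I subunits and adaptors, of which 2 were tested, was called. Of all genes tested, 20.2% were called in either direction.

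Of 11 other phosphoinositide phosphatases, 6 were lower and 2 higher with adjusted p below 0.05 (quasi-likelihood test of edgeR), against 36.7% of all genes in each direction. Their median log2 fold change was −0.36. At both thresholds 1 was called lower, near the share of 9.98% of all genes tested. That gene, Inpp5e, which acts at the primary cilium, fell from 54.5 ± 1.01 to 24.1 ± 2.68 normalized CPM (SD over 3 libraries), or a log2 change of −1.18 (adjusted p = 3.52e-17). The closest relatives of the 2 phosphatases, named after their values were seen, went down, whereas Inpp4b rose and Inpp5d did not pass the test. Inpp4a had a log2 change of −0.36 (adjusted p = 0.000474) and Inppl1 (SHIP2) of −0.60 (adjusted p = 6.91e-17). Inppl1 had 11246, 11148 and 10970 counts in WT and 7470, 7372 and 7260 in KD, without overlap between the groups.

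Downstream, a list of Pdpk1, AKT and mTORC2 genes also held Phlpp1 and Phlpp2, phosphatases that act on AKT, named after their values were seen. Of its 11 tested genes, 8 were higher and 2 lower with adjusted p below 0.05 (quasi-likelihood test of edgeR), with a median of 0.471. Both Phlpp1 (log2 fold change 0.23) and Phlpp2 (0.56) were among the higher genes. Mlst8, a subunit of both mTOR complexes, was called higher (log2 fold change 1.28), from 10.6 ± 0.361 to 25.7 ± 0.897 normalized CPM (SD, n = 3 each). It was the only call in this list, where 10.2% of all genes tested were called higher. Of 14 AKT targets and mTORC1 genes, 9 were lower and 4 higher, with a median of −0.335. Foxo3, a transcription factor that AKT keeps out of the nucleus, was called lower (log2 fold change −1.24), from 124.6 ± 4.91 to 52.8 ± 2.81 normalized CPM. It too was the only call in its list, where 9.98% of all genes tested were called lower. By adjusted p below 0.05 alone (quasi-likelihood test of edgeR), 36.7% of all genes tested passed in each direction. That is a smaller share than that of the higher genes in the first of these lists or of the lower genes in the second.

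**Figure D4:**
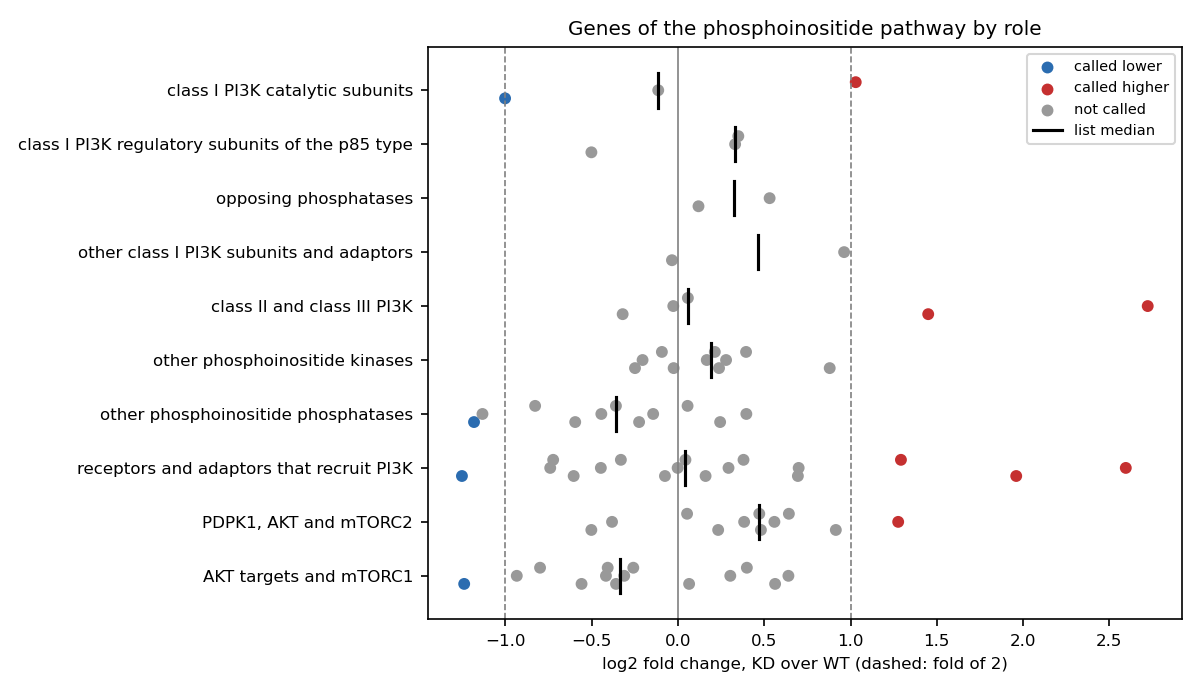
Log2 fold change of the KD over the WT libraries (horizontal axis) for each tested gene of the pathway, in rows by role, with the median of each row as a black bar and called genes in colour. The rows of other phosphoinositide phosphatases and of AKT targets have medians of −0.36 and −0.335. The row of opposing phosphatases has 0.325, and the AKT and mTORC2 row, which includes Phlpp1 and Phlpp2, has 0.471.

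Pik3cd, Pik3cg and Inpp5d are genes of leukocytes, and markers of other cell types and tissues were looked at beside them. In bulk samples, fewer cells of a type and less RNA per cell cannot be told apart. Of 16 leukocyte markers matched in the table, 5 were higher and 1 lower in all KD libraries than in all WT libraries. The share was 37.8% of all genes tested in each direction, but only 6 of the 16 were tested, so the 2 are not alike. The lower one, Csf1r, had 2, 3 and 2 counts in WT and 2, 0 and 1 in KD, at or under the floor of 3 counts, so it was apart only after scaling. The summed level of the markers was 36.1 to 36.2 normalized CPM in WT and 100 to 112 in KD. Most of this was S100a8 (33.0 ± 1.25 and 95.2 ± 6.33 normalized CPM; SD, n = 3 each), which other cells also express. The other called markers rose too, Lyz2 from 0.795 ± 0.626 to 6.58 ± 0.199 and Cd74 from 0.928 ± 0.254 to 3.27 ± 0.708 normalized CPM. S100a9 had 0, 0 and 2 counts in WT and 50, 68 and 48 in KD. Of the 6 leukocyte markers tested, 4 were called higher, against 10.2% of all genes tested. These 4 (S100a8, S100a9, Lyz2 and Cd74) were also higher without overlap between the groups. The T cell marker Cd3e had 0 counts in all 6 libraries and Ptprc between 5 and 13. The summed level of 9 lung markers went from between 1.65 and 1.96 to between 72.8 and 83.4 normalized CPM, with all 9 higher in KD, and that of 8 kidney markers from between 8.28 and 8.56 to between 21.9 and 25.9, with 5 higher and 1 lower. Most of the WT kidney sum was Cubn, the lower gene (8.28 ± 0.132 in WT and 6.07 ± 0.361 in KD). The 5 higher ones had 0 to 8 counts in each WT library. Laptm5, another leukocyte marker, had 31, 21 and 6 counts in WT and 1, 5 and 10 in KD, with overlap between the groups. The part of these markers in the results was not tested, and in this design it cannot be told apart from the knockdown.

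The genes whose profile over the 6 libraries was most like that of Pik3cb, among 9138 genes with a mean of at least 10 normalized CPM, were Mafk, Mreg and Cryab, at Euclidean distances of 0.0708, 0.0760 and 0.0953 between centred log2 levels. For Pik3cd they were Rps27, Rpl14 and Bbs12, at distances of 0.0595, 0.0957 and 0.0973. These distances are a description, in which the group difference weighs most.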

How the data were processed

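RNA-seq libraries of 3 KD and 3 WT samples were analysed. According to the study's methods, the authors trimmed adapters and aligned reads with HISAT2 to hg19, whereas the submitters' processing notes name hg38, HISAT2, featureCounts and DESeq2. The library kit also differs between the methods and the labels, and annotation and strand setting are not given in the sources used here. The authors deposited whole-number counts per gene without normalization. The table was used as deposited, with 0 columns of values left unused, and 583 genes had no count.

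The test on counts used edgeR 4.0.16 under R 4.3.3 (filterByExpr with a minimum count of 10 and a minimum total of 15, TMM, quasi-likelihood F test, group as the only term). P-values were adjusted by Benjamini-Hochberg over 13497 genes. Standard errors are the absolute log2 fold change over the square root of F, and intervals (95%) use the fit's degrees of freedom. Genes were called at an adjusted p under 0.05 and a fold change over 2. On simulated counts for this comparison, 196 of 200 genes changed 1.5-fold had an adjusted p under 0.05, with 6 of the unchanged among 13484 genes, and all 200 genes changed 3-fold were called. In the simulation only these 200 well-counted genes changed, and all genes shared a common dispersion. In the data 73.4% of genes passed the adjusted p threshold, so error rates under such wide change were not tested. Within groups, chi-square per degree of freedom between library pairs was 3.88 to 7.60, above the sampling noise in each. Counting floors (3 counts) cover counting error only.

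The members, gene lists and tests were chosen with earlier results of these data known. All members are named, together with the called genes of each pathway list (at most 3 a list, by absolute log2 fold change) and, for each called member, the 3 genes of nearest profile (log2 of normalized CPM + 0.5). Genes named outside this rule are marked, other than marker genes of cell types and tissues, which were picked after their values were seen. Some genes of the lists are not reported here by name. Alternatives were other scalings, filters, DESeq2 1.42.0, each replicate left out, the replicate number as a block and no fold threshold. Gene positions are from GENCODE v44 (GRCh37) and promoter sequences from RefSeq (GRCh38.p14). Protein sequences were not used here.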

Additional observations from a re-analysis of the deposited data

How the results depend on the processing

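The calls of Pik3cb and Pik3cd at a fold change over 2 depended on the processing, because both changes lie at that threshold. The number of members called lower went from 1 to 0 under DESeq2 scaling as well as in the DESeq2 Wald test, and the number called higher from 1 to 0 with upper quartile scaling. With 1 library left out, each number ranged from 0 to 1. Without the fold threshold, 3 members were lower and 3 higher, against 4960 and 4952 of all genes, where 1347 and 1381 were called at both thresholds. Of the 3 lower members, Pik3ca had an adjusted p of 0.05 or more in 6 of 13 alternatives (0.00514 to 0.366), and its log2 fold change ran from −0.17 to −0.057 with 1 library left out. Requiring at least 10 counts in every sample left 919 lower and 903 higher genes. Over 13 alternatives, none of the 8 members tested changed direction, and Pik3cg was not tested. The log2 ratio of Pik3cb to Pik3cd differed between the groups by 1.98 to 2.11 with 1 library left out, and the log2 ratio of catalytic to regulatory counts by −0.0777 to 0.0387, or by 0.619 without Pik3ca and Pik3r1. The replicate numbers did not pair the samples, as the deviations of same-numbered libraries correlated at 0.0135, −0.0194 and −0.0202 and only 1 of 3 KD libraries correlated best with its own number. With the replicate number as a block, 1316 genes were called lower and 1360 higher, and the same numbers of members. For Pik3cg and Pik3c2g, few counts limit what can be said.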
